A study of Chlamydomonas reinhardtii with 2 samples.

Results

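The genes described here code for enzymes and regulators of chlorophyll and carotenoid synthesis in the unicellular green alga Chlamydomonas reinhardtii. They were chosen by gene symbol, from glutamyl-tRNA formation through haem and chlorophyll to the isoprenoid precursors, carotenes and xanthophylls. Of 17147 loci in the deposited table, 38 matched, 0 of these had to be dropped for a description that names another function, and all 38 had a mean of at least 1 RPKM (reads scaled to transcript length and to the mapped reads of the library). By role, 12 belong to the common tetrapyrrole steps, 10 to the magnesium branch, 3 to the haem and bilin branch, 1 is a regulator, 6 belong to the methylerythritol phosphate (MEP) pathway with its isomerase, and 6 to carotenoid synthesis.

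The study compared 2 cultures of strain 21gr (CC-1690, wild-type), both grown at 25 °C and 200 rpm under constant illumination (70 µmol/m2*sec). Cells in mid-logarithmic growth were washed without phosphorus, brought to one chlorophyll density, and sampled 24 h later, after growth at 1.1 mM phosphate in acetate medium (phosphate replete) or in the same medium at 0 mM phosphate (phosphate deprived). Each condition is 1 library of total RNA from 1 strain, so no value below has a replicate error, no test was possible, and every difference is between these 2 libraries and not shown for the conditions. The library labelled deprived had the higher level of PHO1, an alkaline phosphatase gene, at 198 RPKM against 0.529 RPKM.

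Chlorophyll and haem are made from one precursor, 5-aminolevulinate, which plastids form from glutamate bound to its transfer RNA. The pathway runs through protoporphyrin IX, where a magnesium chelatase leads to chlorophyll and a ferrochelatase to haem. Free intermediates are photoreactive, and the pathway is known for tight control at 5-aminolevulinate formation and at magnesium insertion. Carotenoids, and the phytol tail of chlorophyll, come from isoprenoid units of the plastid MEP pathway, and the xanthophylls among the carotenoids take part in light harvesting and photoprotection.

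Most of these genes were lower in the deprived library, while the xanthophyll genes ZEP and CHYB were higher. The median log2 fold, deprived over replete with a pseudocount of 1 RPKM added to each value, was -0.40 over the 38 genes and 0.14 over all 13855 genes with a mean of at least 1 RPKM. Below 0 lay 29 of the 38, against 38% of all genes. At least 1.5-fold lower were 12 of the 38 against 6.66% of all genes, and at least 1.5-fold higher were 2, ZEP and CHYB, against 18.1%. At least 2-fold higher was 1 gene, ZEP, against 5.59%, and at least 2-fold lower were 0 against 1.64%. Their RPKM summed to 2851 with phosphate and to 2339 without it, or 0.316% and 0.273% of all RPKM. Paired values below give the replete library first.

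RPKM is a share of a library, so a lower value cannot be told apart from more RNA of other genes, and fewer cells with a transcript cannot be told apart from less of it per cell. Scaling both libraries to the same median, by a trimmed mean, to a common sum or by quantiles moved the median fold of all genes by -0.17, -0.15, 0.06 and -0.17. Relative to that median the 38 genes lay at -0.55 as deposited and at -0.57, -0.57, -0.54 and -0.48 under these scalings. The sign was below 0 under every scaling for 28 genes and above 0 for 5, HEMA, POR, PSY, CHYB and ZEP. It differed between scalings for the other 5, GTS1, CPX2, CHLH1, CTH1B and LCYE. The number at least 1.5-fold lower was 20 with the same median, 18 with the trimmed mean, 17 with quantiles and 8 with a common sum, against 11.2%, 10.4%, 11.0% and 5.41% of all genes.

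**Figure D1:**
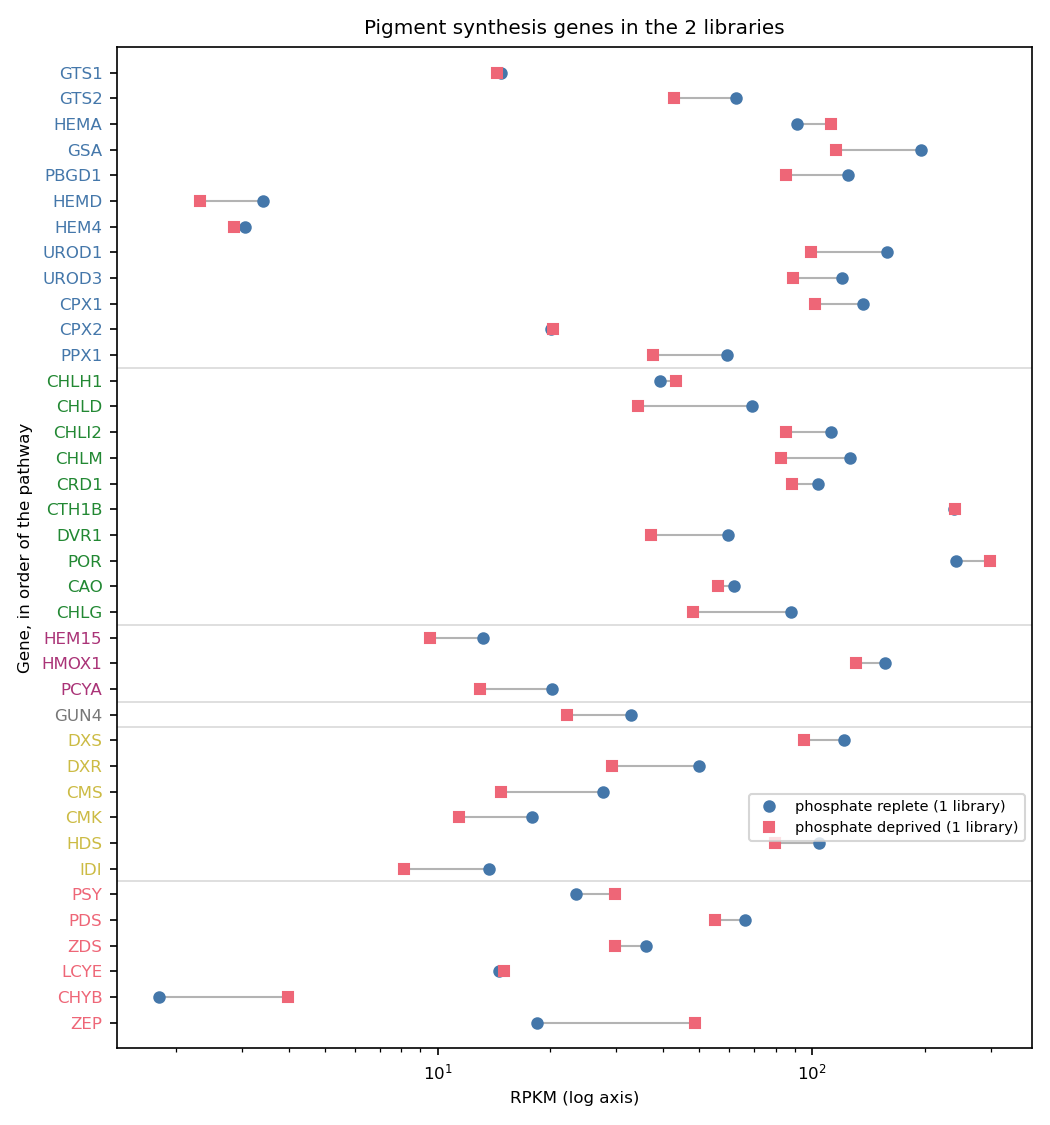
RPKM of each of the 38 genes on a log axis in the phosphate replete library (circles) and the phosphate deprived library (squares), 1 library each, in the order of the pathway; label colours mark the role groups. Squares lie left of circles for most tetrapyrrole and MEP genes and right of them for ZEP and CHYB.

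In 5-aminolevulinate formation, the folds of consecutive steps differed. HEMA, the glutamyl-tRNA reductase that commits glutamate to the pathway, had 91.2 and 113 RPKM (log2 fold 0.30). It was one of only 2 tetrapyrrole genes above 0 under every scaling tried. Its fold was not far from that of most genes: 62.8% of all genes had a lower one, and it was 0.094 after scaling to the same median. GSA, the aminotransferase that makes 5-aminolevulinate from the product of HEMA, had 195 and 116 RPKM (-0.75). The level of HEMA relative to GSA was therefore 0.467 with phosphate and 0.972 without it. GTS2, a glutamyl-tRNA synthetase gene that also serves translation, had 62.7 and 42.9 RPKM (-0.54), whereas its relative GTS1 had 14.8 and 14.4 RPKM (-0.04, and above 0 after scaling to a common sum).

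From porphobilinogen to protoporphyrin IX the abundant gene of each step was lower. PBGD1, the deaminase that joins porphobilinogen units, had 125 and 85.3 RPKM (-0.54). Uroporphyrinogen decarboxylase is encoded by UROD1, with 158 and 99.5 RPKM (-0.67), and UROD3, with 120.4 and 88.9 RPKM (-0.43). Both decarboxylase genes were thus lower, and the ratio of UROD1 to UROD3 was 1.32 and 1.12. The coproporphyrinogen oxidase genes differed from each other: CPX1 had 137 and 102 RPKM (-0.42), while the weaker CPX2 had 20.1 and 20.3 RPKM (0.02, below 0 under 3 of 4 scalings). PPX1, the protoporphyrinogen oxidase at the end of the common part, had 59.4 and 37.7 RPKM (-0.64).

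Uroporphyrinogen III synthase, which closes the tetrapyrrole ring, is named in 2 weakly expressed members. HEMD had 3.42 and 2.31 RPKM (-0.42), and HEM4, which the table also calls part of a putative methyltransferase, had 3.06 and 2.86 RPKM (-0.07). A locus with the same description, UROS, lies outside the symbol rule and was added after its values were seen; at 88.1 and 60.7 RPKM (-0.53) it was by far the most abundant of the 3. Over the 12 common-step members the median log2 fold was -0.43, with 10 below 0, 3 at least 1.5-fold lower and 0 at least 1.5-fold higher.

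The subunit genes of magnesium chelatase found among the 38, for the first enzyme specific to chlorophyll, did not move together. CHLD had 69.0 and 34.4 RPKM, the lowest fold of all 38 genes (-0.98, or 2.01-fold lower without a pseudocount). CHLI2, a gene for the ATPase subunit, had 112 and 85.4 RPKM (-0.39). No locus could be identified as CHLI1, so other genes of this subunit are not covered. CHLH1, the subunit that binds protoporphyrin, had 39.3 and 43.4 RPKM (0.14, and below 0 after scaling to the same median or by a trimmed mean). In the replete library CHLH1 was below CHLD, at a ratio of 0.570, and in the deprived library it was above it, at 1.26. GUN4, which binds porphyrins and stimulates the chelatase, had 32.9 and 22.2 RPKM (-0.55), so that its level relative to CHLH1 went from 0.836 to 0.511.

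The next steps were lower or nearly level up to protochlorophyllide. CHLM, the methyltransferase after the chelatase, had 126 and 82.6 RPKM (-0.61). The oxidative cyclase that forms the fifth ring has 2 diiron-protein genes, CRD1 and CTH1B, which in Chlamydomonas are known to respond to copper and oxygen in opposite ways. CRD1 had 104 and 88.7 RPKM (-0.23), and CTH1B had 239.7 and 241.5 RPKM (0.01, below 0 after scaling to the same median or by a trimmed mean). CTH1B was thus the more abundant of the pair in both libraries, with a ratio of CRD1 to CTH1B of 0.434 and 0.367. The table describes CTH1B as an untranslated variant formed under low copper or oxygen, and 1 value per locus cannot separate transcript forms. CYC6, the cytochrome c6 gene known to be induced with CRD1 when copper is scarce, had 5.29 and 16.1 RPKM (1.44). CRD1 itself lay on the other side of 0, and a role of copper was not tested.

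The end of the chlorophyll branch held its most abundant gene and one of its lowest folds. DVR1, the reductase of the 8-vinyl group, had 59.5 and 37.2 RPKM (-0.66). POR, the light-dependent protochlorophyllide reductase, had 243 and 299.8 RPKM (0.30), the highest level of all 38 genes in both libraries. Of all genes, 62.9% had a lower fold than POR, whose fold was 0.095 after scaling to the same median. The ratio of POR to DVR1 was 4.07 and 8.06. CHLG, the synthetase that attaches the phytol tail, had 87.7 and 48.0 RPKM (-0.86). CAO, the oxygenase that makes chlorophyll b, had 61.9 and 56.1 RPKM (-0.14), and passed from below CHLG (ratio 0.706) to above it (1.17). Over the 10 magnesium-branch members the median was -0.31, with 7 below 0, 4 at least 1.5-fold lower and 0 at least 1.5-fold higher.

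All 3 genes of the haem and bilin branch were lower. HEM15, the ferrochelatase that inserts iron, had 13.2 and 9.55 RPKM (-0.43). HMOX1, the haem oxygenase that opens haem to biliverdin, had 157 and 131 RPKM (-0.25). PCYA, which reduces biliverdin to a phycobilin, had 20.2 and 13.0 RPKM (-0.60). HEM15 was the weaker of the chelatases at the branch point in both libraries, and its ratio to CHLD was 0.192 and 0.278.

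**Figure D2:**
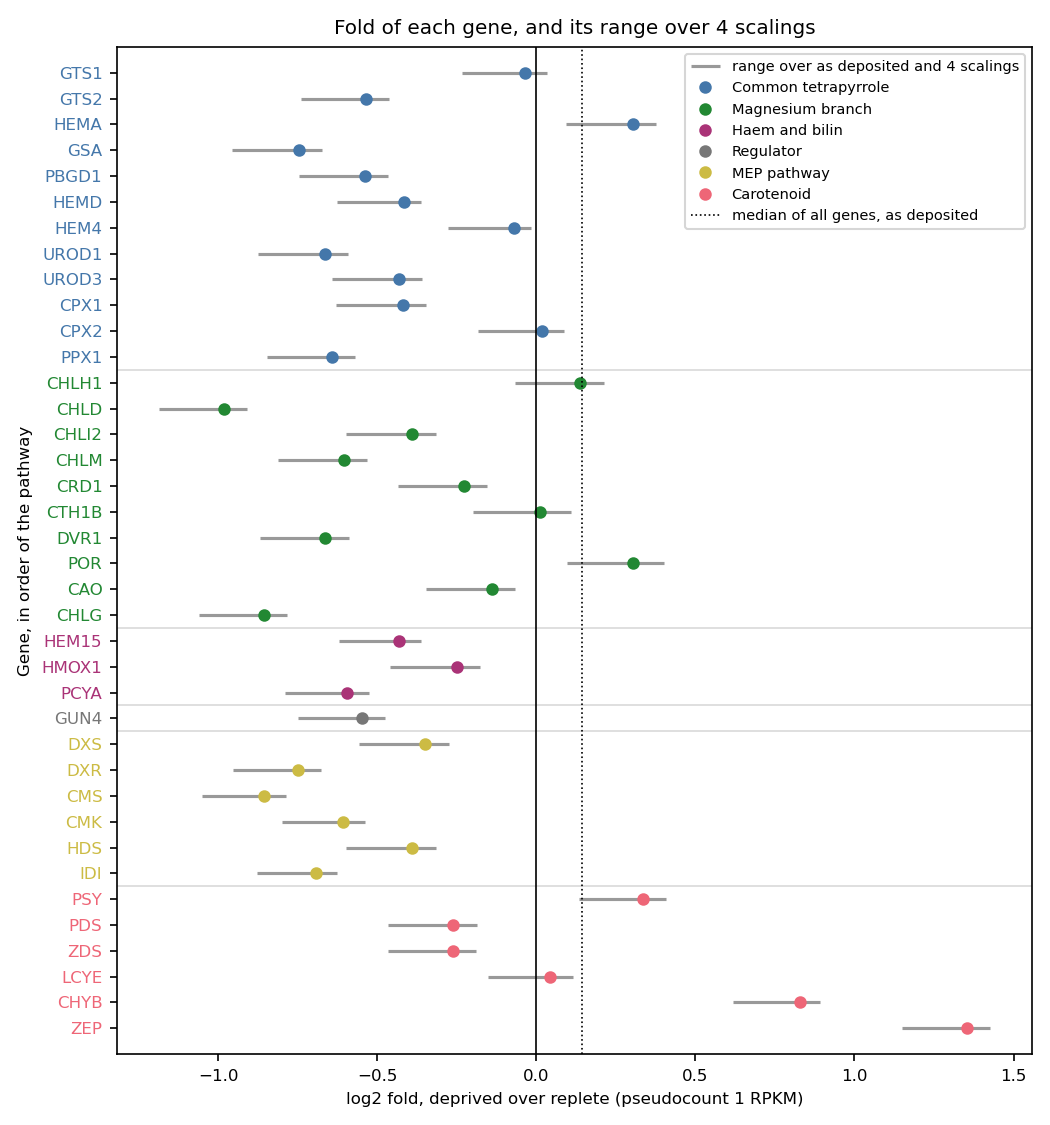
Log2 fold of each gene, deprived over replete with a pseudocount of 1 RPKM (points, coloured by role), with the range over the deposited values and 4 scalings (bars); the dotted line is the median of all genes, 0.14. CHLD is lowest at -0.98 and ZEP highest at 1.35.

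The MEP pathway genes that matched the rule were all lower, with a median of -0.65, 6 of 6 below 0 and 4 at least 1.5-fold lower. DXS, the synthase that opens the pathway, had 122 and 95.4 RPKM (-0.35). DXR, the reductoisomerase after it, had 49.8 and 29.2 RPKM (-0.75), and CMS, the enzyme of the third step, had 27.6 and 14.8 RPKM (-0.86). Both of these folds were lower than that of DXS. CMK, the kinase, had 17.9 and 11.4 RPKM (-0.61), and HDS, an iron-sulfur enzyme near the end, had 105 and 79.5 RPKM (-0.39). IDI, which interconverts the final isoprenoid units, had 13.8 and 8.13 RPKM (-0.69).

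Further genes of these steps carry other symbols or none, and were found by description after their values were seen. Among them the MEP cyclase gene MCS had 98.2 and 92.8 RPKM (-0.08), and IDS, the reductase that ends the pathway, had 123 and 133 RPKM (0.12). The geranylgeranyl diphosphate synthase gene GGPS had 120.5 and 84.1 RPKM (-0.51), and a geranyl diphosphate synthase gene (Cre12.g511700) had 7.98 and 6.64 RPKM (-0.23). With these 4 added, the MEP median was -0.45, with 9 of 10 below 0, so the lower level did not extend to every enzyme of the pathway. The geranylgeranyl reductase gene (Cre01.g050950), whose enzyme makes the phytol tail, had 331 and 322 RPKM (-0.04). The gene described as FLU (Cre10.g460050), a negative regulator that binds glutamyl-tRNA reductase, had 77.6 and 55.1 RPKM (-0.49).

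Carotenoid synthesis was the only role group with a median above 0 in the deposited values, though near that of all genes (0.19 against 0.14). PSY, the phytoene synthase that commits isoprenoids to carotenoids, had 23.4 and 29.8 RPKM (0.34). The desaturases that follow were slightly lower, PDS with 66.4 and 55.2 RPKM and ZDS with 36.0 and 29.8 RPKM (both -0.26). LCYE, the cyclase at the entry to the lutein branch, had 14.6 and 15.0 RPKM (0.04, below 0 under 3 of 4 scalings).

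The xanthophyll genes ZEP and CHYB, on the beta-carotene side, had the highest folds of the 38 genes. Carotenoid hydroxylase genes outside the 38 were lower (CYP97A5, -0.48) or higher (CYP97A6, 0.51). ZEP, the epoxidase that turns zeaxanthin into violaxanthin, had 18.4 and 48.6 RPKM (1.35, or 2.64-fold without a pseudocount). Among the 38 genes it moved from rank 30 to rank 17 by level, and its ratio to ZDS went from 0.511 to 1.63. CHYB, the hydroxylase that makes zeaxanthin from beta-carotene, had 1.80 and 3.97 RPKM (0.83, or 2.21-fold without a pseudocount), and remained one of the 3 weakest genes in both libraries. ZEP was 10.2 and 12.2 times as abundant as CHYB. Over the 6 carotenoid members the median was 0.19, with 4 above 0 and 2 below (33.3%, against 38% of all genes). After scaling to the same median the carotenoid median was -0.01, and that of all genes -0.025.

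How far counting alone limits these folds can only be inferred, since no read counts are given. At 1252 loci the values stand in one fixed ratio between the libraries, as if these had no reads and one count had been added to each gene. The highest of these values, 161 RPKM (replete) and 139.9 RPKM (deprived), was read as that of a locus of 1 base, so that the added count is worth 0.161 and 0.140 RPKM for 1000 bases. Each library was further taken as the average of 2 runs with 1 count added in each, which no source states. With 1 run per library the reads would be fewer and the errors below larger. Under the reading of 2 runs, a gene of 1000 bases with 10 RPKM rests on about 122 and 141 reads. Its log2 fold then has a counting error of 0.18 (SE). At 100 RPKM that error is 0.06. Transcript lengths were not used; at the levels of CHYB, a gene of 1000 bases would have about 20.4 and 54.8 reads and an error of 0.37, and at the levels of HEMD and HEM4 errors of 0.34 and 0.33. These errors cover counting only and not the spread between cultures, which 1 library per condition does not show.

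**Figure D3:**
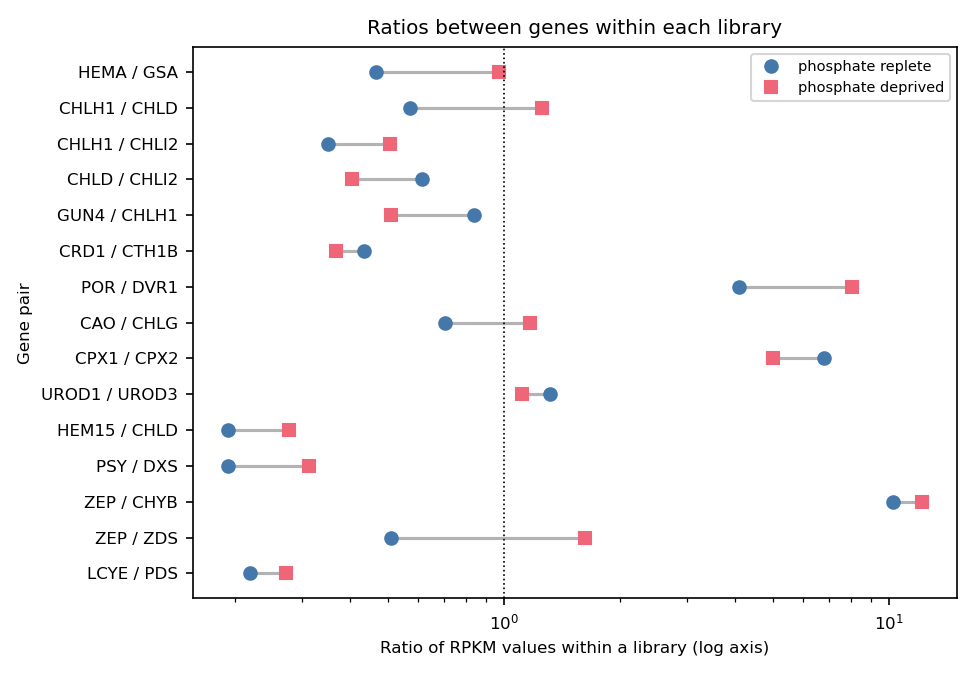
Ratio of the RPKM of 2 genes within each library, on a log axis, for 15 pairs of subunits, paralogs, consecutive steps or steps farther apart in the pathways (circles replete, squares deprived; the dotted line is a ratio of 1). CHLH1 over CHLD goes from 0.570 to 1.26, CAO over CHLG from 0.706 to 1.17 and ZEP over ZDS from 0.511 to 1.63.

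A ratio within a library does not depend on how the libraries are scaled by a single factor, so it shows unequal change between genes without saying which of them changed. Of the 15 pairs, chosen with the values known, the ratio changed most for ZEP over ZDS (3.19-fold), CHLH1 over CHLD (2.21-fold), HEMA over GSA (2.08-fold) and POR over DVR1 (1.98-fold). Other pairs moved less, among them LCYE over PDS (1.24-fold) and ZEP over CHYB (1.19-fold). So did the paralog pairs, with 0.851 for UROD1 over UROD3, 0.846 for CRD1 over CTH1B and 0.737 for CPX1 over CPX2. How reads shared by such close copies were counted is not given in the sources used here, so the values of paralogs are uncertain to that extent, as is UROD3, which overlaps another gene in the RefSeq table of assembly Chlamydomonas_reinhardtii_v5.5.

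Other genes of these or related pathways were listed by symbol and description, from xanthophyll, quinone and tocopherol synthesis to chlorophyll breakdown. The list also holds genes described for ubiquinone synthesis (COQ symbols) and cytochrome c oxidase assembly (COX10), so not all of it concerns pigments. Of 34, 31 had a mean of at least 1 RPKM, and their median log2 fold was 0.26. At least 2-fold higher were 5 (against the 5.59% of all genes), and 0 were at least 2-fold lower. PTOX1 and PTOX2, plastid oxidases that take electrons from plastoquinol and in plants serve phytoene desaturation, had 8.68 and 36.0 RPKM (1.94) and 14.4 and 31.0 RPKM (1.06). CCD1, a carotenoid cleavage dioxygenase, had 9.29 and 25.8 RPKM (1.38). The quinone methyltransferase genes COQ5D and COQ5B had 7.97 and 24.3 RPKM (1.499) and 2.95 and 7.12 RPKM (1.04).

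Among these other genes, 3 of 31 were at least 1.5-fold lower, VTE5, NYC1 and CRTISO (9.68% against 6.66% of all genes), and 6 were at least 1.5-fold higher (19.4% against 18.1%), shares near those of all genes. VTE5, described as related to a phytol kinase, had 15.9 and 8.87 RPKM (-0.78), and in that RefSeq table it lies next to PPX1. NYC1, a chlorophyll b reductase that starts chlorophyll b breakdown, had 6.64 and 3.81 RPKM (-0.67). CRTISO, the isomerase after ZDS, had 31.9 and 20.7 RPKM (-0.60), on the same side of 0 as the desaturases. Of the carotenoid hydroxylases, CYP97A5 had 29.1 and 20.6 RPKM (-0.48) and CYP97A6 had 4.31 and 6.58 RPKM (0.51). The beta-carotene ketolase gene BKT, the neighbour of CHYB in the same table, had 0.728 and 1.01 RPKM and stayed below the filter.

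The median of the 38 genes was below those of light-harvesting antenna and photosystem subunit genes and above that of plastid ribosomal protein genes. Light-harvesting antenna genes, whose proteins bind the pigments, had a median of -0.13 over 20 genes, with 13 below 0 and 0 at least 1.5-fold lower. Photosystem subunit genes had -0.13 over 22 genes, with 18 below 0, a larger share (81.8%) than among the 38 genes (76.3%), and 2 at least 1.5-fold lower (9.09%, against 6.66% of all genes). Plastid ribosomal protein genes lay at -1.15 over 30 genes, with all 30 at least 1.5-fold lower. Quantile normalization put the antenna median at 0.01. These lists come from the same 2 libraries, and the differences between them were not tested.

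**Figure D4:**
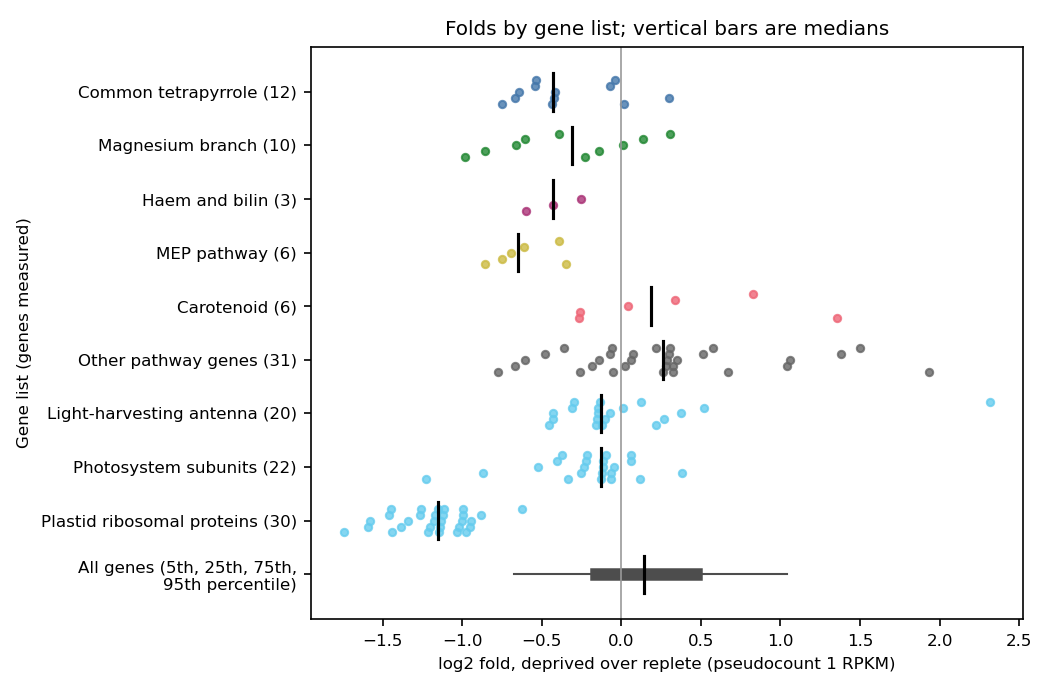
Log2 folds, deprived over replete with a pseudocount of 1 RPKM, of single genes (points) by list, with medians (vertical bars); the lowest line gives the percentiles of all genes named on its label. MEP genes have a median of -0.65, carotenoid genes 0.19 and plastid ribosomal protein genes -1.15.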

How the data were processed

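RNA from 1 phosphate replete and 1 phosphate deprived culture was sequenced by standard Illumina methods, per the labels' protocols. The authors deposited RPKM values for both libraries, with gene symbols and descriptions; the only tool that the submitters' processing notes list is Bowtie (version not stated). Sources used here do not give the counter, genome build, annotation version or filters, so no coordinates are printed. Columns were matched to libraries by the library code in the labels.

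Folds are log2 of (deprived + 1) over (replete + 1) RPKM, which understates folds of weak genes, and genes with a mean of at least 1 RPKM entered the background. Genes were counted by size of the fold (1.5 and 2); 1 library per condition allows no test. Every member was to be named, with other pathway genes at least 2-fold different and the 3 largest absolute folds. Those at least 1.5-fold lower, CYP97A5, CYP97A6 and BKT were added after their values were seen. SPS1, with no description, was left out of the other pathway genes. Members and lists were chosen with earlier results of these data known. Alternatives were pseudocounts of 0.1, 5 and none, 4 scalings (for the trimmed mean, 30% of log ratios and 5% of mean levels were cut off), no filter, a mean of at least 5 RPKM and, added after the data were seen, 7 further genes of the same steps. Leaving the loci at one fixed ratio out of all genes was also added after the data were seen.

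The added count was inferred from 1252 loci that share a ratio of 0.870 between the libraries to within 0.0001 (none of the 38 is among them), reading it as 1 count for each of 2 runs that were then averaged. Of the 38 members, 34 were found in the RefSeq gene table, of which 1, UROD3, overlaps another gene. Calculations used Python 3.11.15, numpy 2.4.6 and pandas 2.3.3. Folds and scalings were tested on simulated data, where the check for lowered genes covered the 4 scalings and not the unscaled values.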

Additional observations from a re-analysis of the deposited data

How the results depend on the processing

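No paired analysis was possible because each condition has 1 library, and for the same reason no replicate could be left out. Medians were taken to have moved past a shift of 0.1 log2. Every one of the 12 genes at least 1.5-fold lower and the 2 higher kept its sign under each pseudocount and scaling tried, and of the 38 genes 28 to 33 were below 0 under these. After scaling to the same median, by a trimmed mean and by quantiles, the median over the 38 genes was -0.60, -0.57 and -0.51; that of the common steps -0.64, -0.61 and -0.58; of the magnesium branch -0.52, -0.49 and -0.42; of haem and bilin genes -0.62, -0.597 and -0.598; of MEP genes -0.84, -0.82 and -0.81; and of carotenoid genes -0.0099, 0.016 and 0.029. In the same order the other pathway genes had 0.078, 0.10 and 0.075, all genes -0.025, -0.0027 and -0.030, and all genes at least 1.5-fold lower made up 11.2%, 10.4% and 11.0%. Antenna medians were -0.34, -0.31 and 0.0075. Photosystem medians were -0.34 and -0.31, and plastid ribosomal protein medians -1.36 and -1.33, under the first 2 of these. The 3 scalings put 3, 3 and 2 of the 38 genes at least 2-fold lower (all genes 3.10%, 2.88% and 2.85%) and 3 other pathway genes at least 2-fold higher each (all genes 3.63%, 3.74% and 3.70%), and the same median put 20 of the 38 at least 1.5-fold lower. With a pseudocount of 5 RPKM, 8 of the 38 were at least 1.5-fold lower and 1 higher, haem and bilin, MEP and other pathway medians were -0.33, -0.50 and 0.12, 3 other pathway genes were at least 2-fold higher, and 3.83% of all genes were at least 1.5-fold lower. With 0.1 RPKM and with no pseudocount, 1 gene was at least 2-fold lower and 2 higher. No share of all genes past 2-fold is available at these pseudocounts, so these counts have no background beside them. A common sum left 8 at least 1.5-fold lower. A mean of at least 5 RPKM left 1 at least 1.5-fold higher and a carotenoid median of 0.044. Shares of all genes that were higher are likewise not available at that filter or at a pseudocount of 5 RPKM. Adding the 7 genes of the same steps gave an MEP median of -0.45. Some loci at the shared ratio, read above as having no reads, passed the filter into all genes. Without them 13447 of the 13855 genes remained, with a median of 0.16, 36.1% below 0 and 6.86% at least 1.5-fold lower. Of 15 ratios, 3 moved, under quantiles. The causes were not tested.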
